A study of Mus musculus with 36 samples.

Results

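The 10 genes described here encode transcription factors that set dorsoventral identity in the neural tube: Nkx2-2, Nkx6-1, Nkx6-2, Olig1, Olig2, Dbx1, Dbx2, Irx3, Irx5 and Gsx2. They were chosen by name from the 51734 genes of a count table, and all 10 were listed in it. Their mRNA was followed in 18 libraries of mouse embryonic stem cells (ESC) and of neural precursor cells (NPC) made from them with retinoic acid (RA). The libraries formed 6 groups of 3, with 3 genotypes of the E14 ESC line at each stage. WT was wild type, MLL3/4 dCD (dCD below) carried MLL3 and MLL4 proteins that are catalytically dead, and MLL2 dTAG (MLL2dTAG below) carried a degron on MLL2, through which the compound dTAG-13 directs the protein to degradation. The genes Kmt2b, Kmt2c and Kmt2d encode MLL2, MLL3 and MLL4, enzymes that methylate histone H3 at lysine 4. Every library, WT and ESC included, was labelled as treated with dTAG-13, at 2 µM and for NPC from day 1 to harvest at day 4, so no comparison isolates the compound. For ESC, its duration is not given in the sources used here. Each genotype was a cell line of its own, so the edit and other differences between lines cannot be told apart. The labels do not say whether replicates were separate cultures, and p-values then measure only the spread between these libraries.

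In the embryonic neural tube, Sonic hedgehog spreads from the notochord and floor plate and induces Nkx2-2, Nkx6-1, Nkx6-2 and Olig2 in ventral progenitors, while Dbx1, Dbx2 and Irx3 mark intermediate progenitors and are kept out of ventral progenitors. Pairs of these factors repress each other at shared borders, which turns a graded signal into sharp progenitor domains. Olig2 marks the progenitors of motor neurons and later, with Olig1, the oligodendrocyte lineage, Dbx1 marks progenitors of commissural interneurons, and Gsx2 patterns the dorsal spinal cord and the lateral part of the ventral telencephalon. RA from the somites favours neural differentiation and induces several of the intermediate factors.

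The promoters of Nkx6-2, Dbx1 and Olig2 are shown because these genes had opposite patterns over the stages: Nkx6-2 was highest in ESC, while Dbx1 and Olig2 had almost no counts in ESC. Sequences are from RefSeq on build GRCm38.p6, run 5′ to 3′ toward the start, and cover the part of the 250 bases before the start that overlaps no GENCODE M21 exon. Capitals mark CG dinucleotides, since MLL2 has a domain that binds unmethylated CG-rich DNA.
Nkx6-2, chr7:139582798-139583047, minus strand: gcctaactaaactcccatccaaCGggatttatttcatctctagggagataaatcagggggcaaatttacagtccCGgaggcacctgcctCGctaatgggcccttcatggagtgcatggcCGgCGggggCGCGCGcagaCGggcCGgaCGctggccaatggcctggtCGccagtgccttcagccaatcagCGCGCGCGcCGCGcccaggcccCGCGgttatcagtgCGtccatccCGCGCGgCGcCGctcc
Dbx1, chr7:49636850-49637085, minus strand: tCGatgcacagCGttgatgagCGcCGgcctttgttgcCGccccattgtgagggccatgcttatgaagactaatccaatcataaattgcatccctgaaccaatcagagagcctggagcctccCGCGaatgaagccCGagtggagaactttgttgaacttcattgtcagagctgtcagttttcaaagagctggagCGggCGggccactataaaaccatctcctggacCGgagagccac
Olig2, chr16:91225300-91225456, plus strand: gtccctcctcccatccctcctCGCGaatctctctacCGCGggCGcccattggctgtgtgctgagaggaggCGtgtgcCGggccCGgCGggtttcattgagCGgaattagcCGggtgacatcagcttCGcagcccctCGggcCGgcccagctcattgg

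Of the 10 genes, 8 had a 300-base window in the RefSeq table, running from 250 bases before to 50 after the start. Nkx6-1 had 40 CG dinucleotides in this window, Nkx6-2 had 32, Olig2 had 25, Nkx2-2 and Gsx2 had 17 each, Dbx1 had 15, Irx3 had 14 and Dbx2 had 10. The median over all 32544 windows was 7, so all 8 lay above it. Several did so by little: 56.2% of all windows had fewer CG than that of Dbx2, and 68.4% fewer than those of Nkx2-2 and Gsx2. Irx3 and Dbx1 lay between these. For Nkx6-1, Dbx2 and Irx3 the part before the RefSeq start lies wholly in GENCODE M21 exons. The sequence TGGGTGG, the core of the motif bound by the GLI effectors of hedgehog signalling, was searched on both strands and found in 1 of the 8 windows, that of Olig2, and in 9.33% of all windows. AGGTCA, a core hexamer bound by retinoic acid receptors, was found on either strand in 0 of the 8 windows and in 16.2% of all windows.

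**Figure D1:**
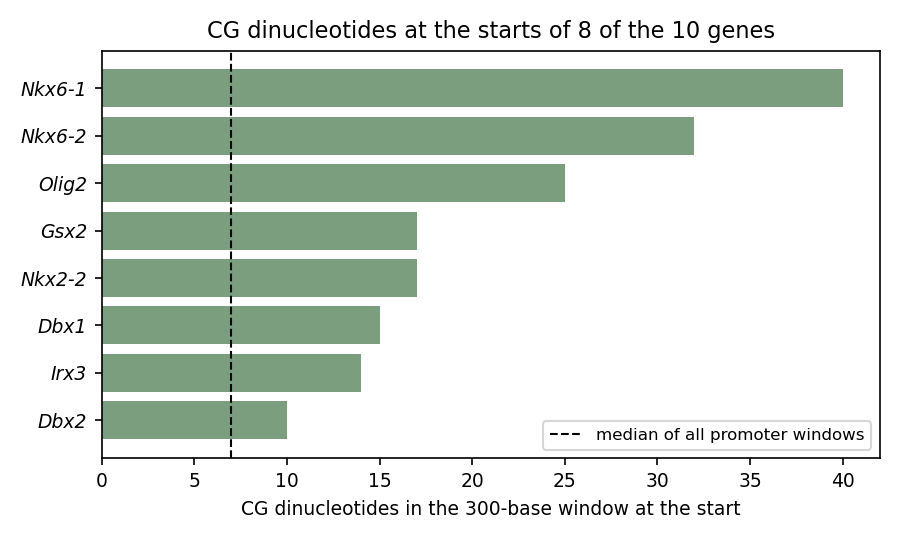
CG dinucleotides (horizontal axis, count) in the 300-base window at the start of each of 8 genes, with the median of all windows as a dashed line. The counts run from 10 in Dbx2 to 40 in Nkx6-1, all above the median of 7.

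Per GENCODE M21 on GRCm38, Nkx2-2 lies at chr2:147177546-147194243, Nkx6-1 at chr5:101658139-101664996, Gsx2 at chr5:75075601-75077893, Dbx2 at chr15:95623563-95655960, and Nkx6-2 and Dbx1 at chr7:139579376-139582797 and chr7:49631499-49636849. Olig2 and Olig1 are neighbours at chr16:91225457-91228677 and chr16:91269772-91271933, with 41.1 kb between them. Irx3 and Irx5 lie on opposite strands at chr8:91798525-91802067 and chr8:92357625-92376286, with 556 kb between them. Of the 10 genes, Nkx2-2, Nkx6-2, Olig1 and Irx3 overlap a gene on the opposite strand, and the strand setting of the counting is not given in the sources used here, so reads of such a pair cannot be told apart. Nkx6-2 shares 277 bases with Inpp5a, a gene with 2641 to 6104 counts over the 3 libraries of a group, and Irx3 shares 1653 bases with Irx3os, which had 6 to 41.

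Total counts ran from 19.4 to 46.0 M per library, and the 10 genes were rare in all of them, with a highest count of 268 and a highest level of 7.54 CPM (counts scaled to the library's total and its TMM factor). Of their 180 values, 25 were 0, and 76.1% of the 155 others were even numbers. Over the whole table, low counts (1 to 10) were even in 60.8% to 66.5% of cases by library, and counts over 1000 in 48.9% to 50.4%. A count of 0 allows up to 3 counts, or 0.0652 to 0.154 CPM, for counting error only, since these reads are not independent molecules. Folds against 3 counts take the counts of the higher group as exact, so they allow for error in the 0 alone. The filter on low counts kept 8 of the 10 genes for testing and left out Nkx2-2 and Gsx2. A gene needed 10 counts at the median library size (0.312 CPM) in 3 or more libraries. Nkx6-1, Olig2 and Dbx1 met this only through NPC libraries (6, 7 and 9 of 9, against 1, 0 and 0 in ESC), and Dbx2 only through ESC libraries (6 of 9, against 2 in NPC). For these 4 genes a difference between the stages was favoured by the filter itself, so their stage values are given as a description. All Nkx6-1 values of MLL2dTAG NPC (0.156 to 0.296 CPM) and all Dbx2 values of MLL2dTAG ESC (0.0732 to 0.287 CPM) lay under this cut. These 2 genes were tested through other groups of those stages. Their lower values in MLL2dTAG there were thus favoured by the filter too and are a description. Kmt2b, Kmt2c and Kmt2d mRNA was present in all 18 libraries (151 to 334 CPM over the 3 genes), which does not check the edits, since both are made to act on the protein. Among markers of neural progenitors, Pax6 was at 38.9 ± 1.16 CPM (SD, n = 3) in WT NPC and 1.75 ± 0.613 in WT ESC. In the same order Sox1 was at 3.10 ± 0.24 and 3.05 ± 0.46, Hes5 at 0.451 ± 0.123 and 0.09 ± 0.104, and Sox2 at 14.4 ± 0.383 and 311 ± 16.4. All 8 listed summed to 245 to 263 and 430 to 452 CPM. By the test used below 6 of the 8 rose and 1 fell (39.1% and 40.4% over all genes tested). Endoderm markers summed to 205 to 213 and 14.5 to 16.0 CPM, and surface ectoderm markers to 395 to 401 and 54.9 to 66.0 CPM. Krt8 and Krt18 made up most of the surface ectoderm sum in each of the groups, with 141.5 and 248.5 CPM in WT NPC. The others of this list, Krt14, Trp63 and Krt5, were at 4.62, 2.58 and 0.378 CPM there. The part of such cells in the stage changes was not tested.

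In WT NPC, Irx3 and Dbx1, factors of intermediate progenitors, were the most abundant of the 10. Levels of different genes were compared per kb of exon. Irx3 stood at 1.24 ± 0.176 CPM per kb (SD, n = 3 libraries, as below) and Dbx1 at 1.16 ± 0.232, and their libraries overlapped. Irx5 followed at 0.405 ± 0.0209 and Nkx6-1, the ventral factor with the highest level, at 0.357 ± 0.0604, also with overlap. Olig2 came next at 0.247 ± 0.0634, below every Nkx6-1 library, and then Olig1 at 0.151 ± 0.0234, below every Olig2 library. Dbx2 (0.105 ± 0.101 CPM per kb), Nkx6-2 (0.0678 ± 0.04), Nkx2-2 (0.0166 ± 0.02) and Gsx2 (0.0112 ± 0.0194) made up the rest, and each overlapped its neighbour in this order. In WT ESC the order was different: Nkx6-2 was highest at 1.09 ± 0.0773 CPM per kb, above every library of every other member, and Nkx2-2 and Dbx1 had no count. In bulk libraries, fewer cells that express a gene and less of its RNA per cell cannot be told apart.

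**Figure D2:**
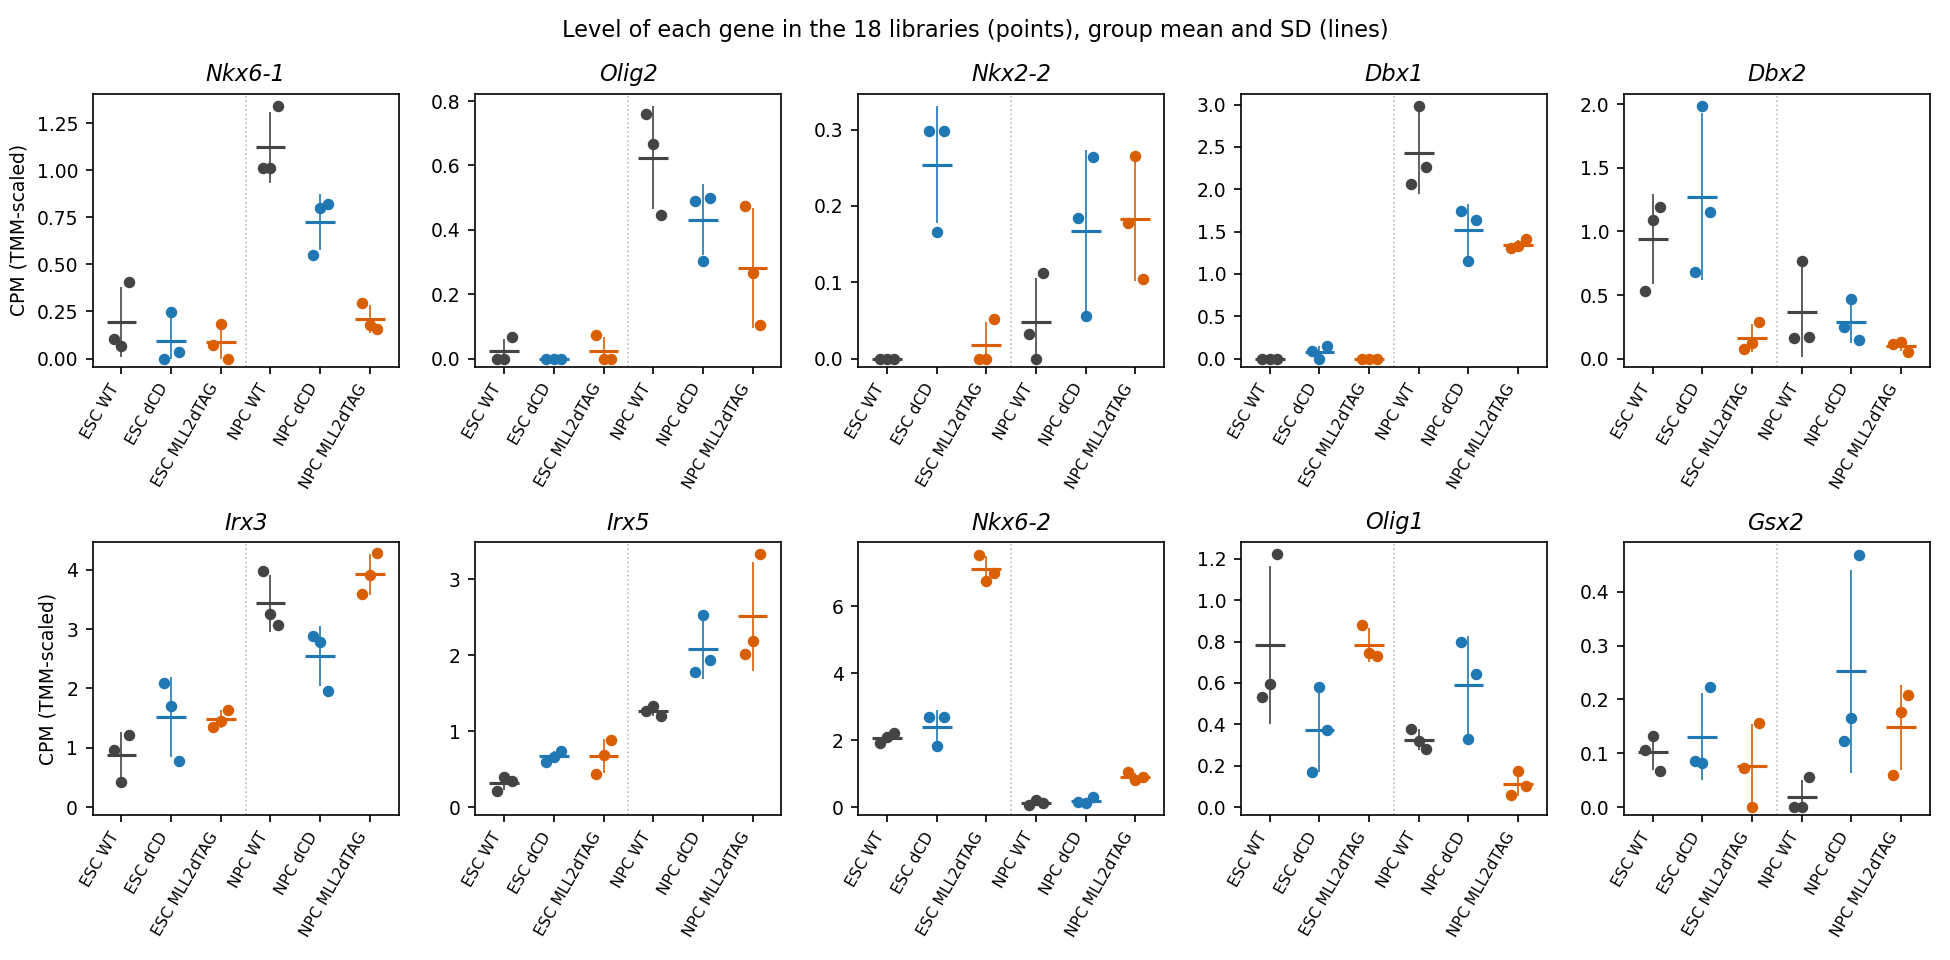
Level of each of the 10 genes (vertical axis, CPM, own scale per panel) in the 18 libraries, as points by group, with the group mean and SD as lines. Nkx6-1, Olig2 and Dbx1 are low in ESC and lower in MLL2dTAG NPC than in WT NPC on average, while Nkx6-2 is highest in MLL2dTAG ESC, at 6.76 to 7.54 CPM.

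From ESC to NPC in WT, all 8 genes tested were called by edgeR's quasi-likelihood test at an adjusted p (Benjamini-Hochberg over all genes tested) under 0.05, 5 higher and 3 lower, where 79.5% of all genes tested were called (39.1% higher and 40.4% lower). Since Nkx6-1, Olig2, Dbx1 and Dbx2 passed the filter through a single stage, nothing is read from the count of 8. Nkx6-1, tested only because of its NPC level, rose, from 0.106, 0.0663 and 0.408 CPM in ESC to 1.01, 1.01 and 1.34 CPM in NPC, a log2 fold change of 2.45 (SE 0.56, adjusted p 0.000197). Its paralogue Nkx6-2 fell, from 1.92, 2.09 and 2.21 CPM to 0.0633, 0.213 and 0.112 CPM, a change of -3.93 (SE 0.33, adjusted p 5.21e-13). The 2 Nkx6 genes thus moved in opposite directions, and neither overlapped between stages.

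Olig2, the motor neuron progenitor factor, had 2 counts over the 3 WT ESC libraries and 65 over the WT NPC libraries, a ratio of 24.3 after scaling for depth (exact 95% counting interval 6.45 to 205). Dbx1 had 0 counts in WT ESC and 65, 112 and 81 in WT NPC, at least 64.2-fold higher in NPC against 3 counts over the group. Stages did not overlap for either gene. Olig1 moved against Olig2: it fell from 0.532, 0.597 and 1.22 CPM to 0.38, 0.319 and 0.279 CPM, a change of -1.29 (SE 0.45, adjusted p 0.00902). Dbx2, tested only because of its ESC level, fell by 1.36 on the log2 scale (SE 0.51, adjusted p 0.0158), but its stages overlapped, with 0.532, 1.09 and 1.19 CPM in ESC and 0.158, 0.772 and 0.168 CPM in NPC. Olig1 was no longer called once ESC WT replicate 3 was left out (-0.80, adjusted p 0.16), nor Dbx2 without ESC WT replicate 3, NPC WT replicate 1 or NPC WT replicate 3 (-1.16, -1.02 and -1.001).

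The Iroquois factors Irx3 and Irx5, homeodomain proteins of intermediate and dorsal progenitors, rose together. Irx3 went from 0.958, 0.431 and 1.22 CPM in WT ESC to 3.99, 3.25 and 3.07 CPM in WT NPC, a log2 fold change of 1.99 (SE 0.27, adjusted p 4.20e-08). Irx5 went from 0.213, 0.398 and 0.34 CPM to 1.26, 1.33 and 1.2 CPM, a change of 1.93 (SE 0.34, adjusted p 4.95e-06). For both genes every NPC library lay above every ESC library.

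In the edited lines the same stage comparison called 7 of the 8 genes in dCD, 5 higher and 2 lower, and 6 of the 8 in MLL2dTAG, 4 higher and 2 lower. Of all genes tested, 77.6% were called in dCD (38.7% higher and 39% lower) and 78.2% in MLL2dTAG (39.9% higher and 38.3% lower). The same 4 genes are among those counted here, so these counts too are a description. Nkx6-2 fell in both lines (-3.67, SE 0.31, in dCD and -2.98, SE 0.20, in MLL2dTAG), and Irx5 rose in both (1.63, SE 0.29, and 1.87, SE 0.26). Irx3 rose by 0.76 (SE 0.26, adjusted p 0.00823) in dCD, where the stages overlapped, and by 1.39 (SE 0.23, adjusted p 1.79e-06) in MLL2dTAG. Dbx1 rose by 4.17 (SE 0.48) in dCD, which had 6 counts in ESC, while in MLL2dTAG it had 0 counts in ESC and 158 in NPC, a rise of at least 43.9-fold. For Olig2 the counts over a group went from 0 to 44 in dCD, at least 10.6-fold higher, and from 2 to 32 in MLL2dTAG, a ratio of 13.3 (exact 95% counting interval 3.40 to 115).

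For 3 further genes, of which Nkx6-1 and Dbx2 passed the filter through a single stage, the test was passed in 1 of the 2 lines. Nkx6-1 rose by 2.89 (SE 0.69, adjusted p 0.000284) in dCD, while in MLL2dTAG its change of 1.28 (SE 0.77) had an adjusted p of 0.129. Olig1 fell by 2.69 (SE 0.50, adjusted p 1.17e-05) in MLL2dTAG, while in dCD its change was 0.64 (SE 0.47, adjusted p 0.21). Dbx2 fell by 2.12 (SE 0.52, adjusted p 0.000416) in dCD, while in MLL2dTAG, where it was already low in ESC, the change was -0.72 (SE 0.77, adjusted p 0.397). Whether a stage change differs from that in WT is what the interaction tests below address. In dCD, Irx3 was no longer called when ESC dCD replicate 3 was left out (0.43, adjusted p 0.128).

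**Figure D3:**
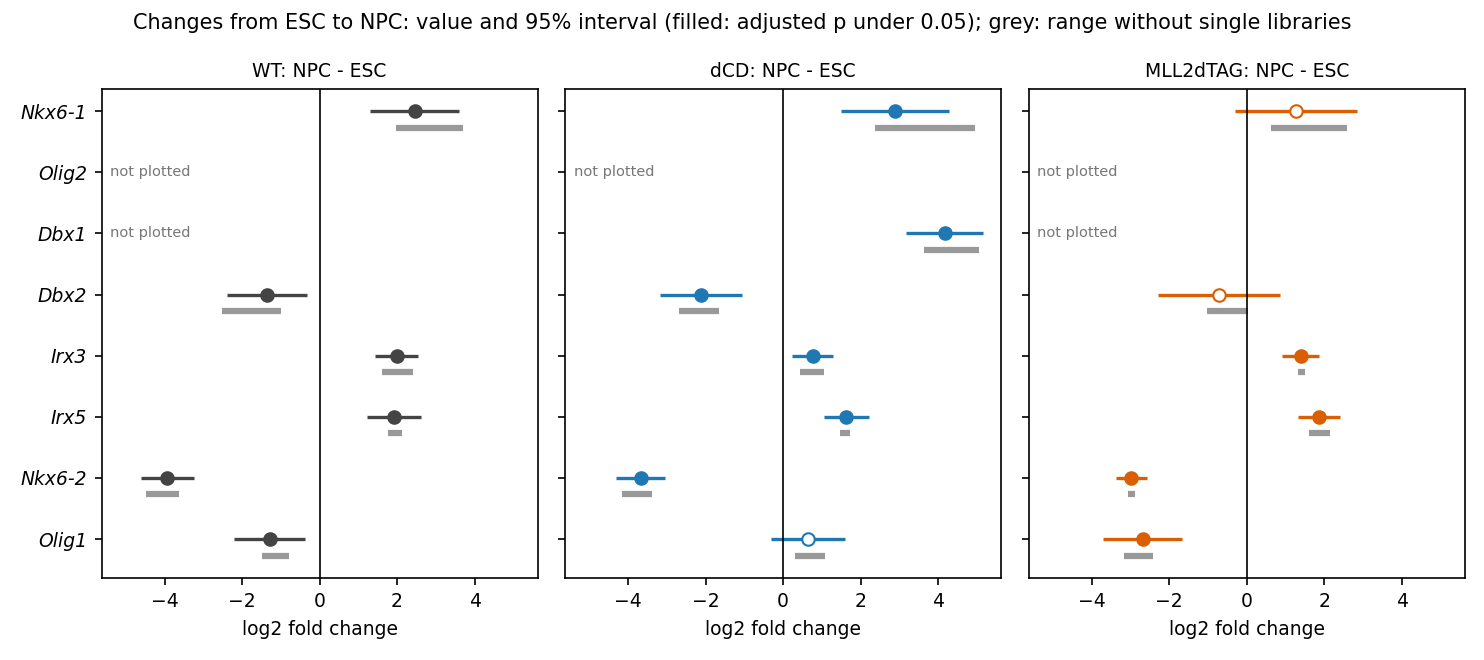
Log2 fold change from ESC to NPC (horizontal axis) of the 8 tested genes in WT, dCD and MLL2dTAG, with its 95% interval, filled where the adjusted p is under 0.05, and in grey the range without single libraries. Nkx6-2 lies below 0 in each line (-3.93, -3.67 and -2.98) and Irx5 above 0 (1.93, 1.63 and 1.87), and genes with 3 or fewer counts in a group are not plotted.

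In MLL2dTAG NPC the Nkx6 paralogues ran in opposite directions against WT: Nkx6-1 was lower and Nkx6-2 higher. In this comparison 6 of the 8 tested genes were called, 2 higher and 4 lower, where 61.7% of all genes tested were called (33.3% higher and 28.4% lower). The median log2 fold change of the 8 was -1.01, against 0.03 over all genes tested. It takes in genes, Nkx6-1 among them, that passed the filter through groups where they were higher, so this median is a description. Nkx6-1, which keeps ventral progenitors from taking intermediate fates, stood at 1.01, 1.01 and 1.34 CPM in WT and at 0.296, 0.177 and 0.156 CPM in MLL2dTAG. Every MLL2dTAG library lay under every WT library, and the level was 5.36-fold lower (log2 fold change -2.42, SE 0.52, adjusted p 0.000128). Every MLL2dTAG library also lay under the filter's cut of 0.312 CPM. Nkx6-1 was tested through other groups, so this fall was favoured by the filter and is given as a description. With all genes kept in edgeR's fit it was at -2.46 (adjusted p 4.53e-07). Nkx6-2 went the other way, from 0.0633, 0.213 and 0.112 CPM in WT to 1.04, 0.795 and 0.887 CPM in MLL2dTAG, without overlap. It was 6.59-fold higher (log2 fold change 2.72, SE 0.37, adjusted p 6.46e-08), though still under its level in WT ESC.

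Of the Olig genes, Olig1 fell in MLL2dTAG NPC and Olig2 did not pass the test. Olig1 was at 0.38, 0.319 and 0.279 CPM in WT and at 0.0593, 0.177 and 0.104 CPM in MLL2dTAG, which did not overlap (log2 fold change -1.43, SE 0.56, adjusted p 0.0268). Olig2 was at 0.759, 0.665 and 0.447 CPM in WT and at 0.474, 0.265 and 0.104 CPM in MLL2dTAG, which overlapped (-1.16, SE 0.53, adjusted p 0.0586). The Olig1 call rests on 34 and 14 counts and was lost without NPC WT replicate 1 or 2, or NPC MLL2dTAG replicate 1 or 3 (-1.44 to -1.16, adjusted p 0.0503 to 0.101). The Olig2 value passed the threshold in the fit of only the NPC groups compared (-1.22, adjusted p 0.0119), with upper-quartile factors (-1.25, adjusted p 0.0427) and without NPC MLL2dTAG replicate 1 (-1.70, adjusted p 0.0243).

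Both Dbx genes, repressors that mark the middle of the tube, fell in MLL2dTAG NPC. Dbx1 was at 2.06, 2.98 and 2.26 CPM in WT and in a narrow range of 1.3 to 1.41 CPM in MLL2dTAG, with no overlap (log2 fold change -0.86, SE 0.26, adjusted p 0.00556). Dbx2 was at 0.158, 0.772 and 0.168 CPM in WT and at 0.119, 0.132 and 0.0522 CPM in MLL2dTAG, with no overlap either (-1.84, SE 0.67, adjusted p 0.0175). NPC WT replicate 2 held the highest value of both genes in WT. Without it Dbx2 was at -0.66 (adjusted p 0.499) and Dbx1 at -0.68 (adjusted p 0.0601), and the Dbx2 call was also lost without NPC MLL2dTAG replicate 3 (-1.54, adjusted p 0.0753). In the fit of only the NPC groups compared, Dbx2 did not pass the filter.

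Of the Iroquois pair, Irx5 was called in MLL2dTAG NPC and Irx3 was not, and the difference between the 2 genes was not tested. Irx5 rose from 1.26, 1.33 and 1.2 CPM in WT to 2.02, 2.18 and 3.34 CPM, with no overlap (log2 fold change 0.99, SE 0.24, adjusted p 0.000497; 95% interval 0.50 to 1.47). Irx3, its neighbour in the same cluster, was at 3.07 to 3.99 CPM in WT and 3.59 to 4.28 CPM in MLL2dTAG, with overlap (0.20, SE 0.21, adjusted p 0.425; 95% interval -0.22 to 0.62), and the 2 intervals overlapped. Nkx6-1, Nkx6-2 and Irx5 were called in all 13 alternative fits of this comparison, and for Nkx6-1 the limit set by the filter stands.

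Markers of other cells moved with MLL2dTAG NPC. The summed level of 8 pluripotency markers was 275 to 279 CPM, against 113 to 114 CPM in WT NPC, with Dppa3 at 0 in both groups. For 7 endoderm markers it was 510 to 524 CPM against 205 to 213 CPM, with none at 0, and for 8 neural progenitor markers 283 to 292 CPM against 245 to 263 CPM, with none at 0. The 9 mesoderm and mesenchyme markers summed to 863 to 875 CPM, with Mesp1 at 0, against 512 to 530 CPM. Of the 8 tested, however, 2 were called higher and 4 lower, with a median log2 fold change of -0.33. Col3a1 alone was at 715 ± 6.60 CPM against 295 ± 9.97. The 6 neural crest markers summed to 122 to 124 CPM against 68.4 to 74.3 CPM, with none at 0, 5 called higher and 0 lower. Lower sums were those of 6 oligodendrocyte lineage markers (847 to 862 CPM against 1050 to 1080 CPM) and 5 markers of limb and other surface ectoderm (225 to 241 CPM against 395 to 401 CPM), while 8 neuron markers overlapped (270 to 285 CPM against 278 to 285 CPM), with none at 0 in these lists. The 6 markers of pancreatic endocrine cells, which also use Nkx6-1 and Nkx2-2, summed to 1.33 to 1.72 CPM, with Ins1 and Neurog3 at 0, against 2.82 to 3.15 CPM, with Gcg, Ins1 and Pdx1 at 0. Called higher and lower were 7 and 0 pluripotency markers, 6 and 0 endoderm markers, 3 and 2 neural progenitor markers and 3 and 2 neuron markers. For the lists with lower sums these numbers were 2 and 3 for the oligodendrocyte lineage, 1 and 2 for surface ectoderm and 0 and 2 for pancreatic endocrine cells. Most of the oligodendrocyte sum was Myrf (675.5 ± 9.53 CPM against 946 ± 22.7 in WT), while Pdgfra rose (160.4 ± 2.61 CPM against 62.8 ± 2.58). Over all genes tested, 33.3% were called higher and 28.4% lower. The part of these cells in the results above was not tested.

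In dCD NPC Irx5 rose and Dbx1 fell against WT. These were the 2 called of the 8 genes tested, where 53.5% of all genes tested were called (26.7% higher and 26.8% lower). The 2 comparisons with WT NPC share the WT libraries. Irx5 stood at 1.78, 2.54 and 1.94 CPM, above every WT library (log2 fold change 0.72, SE 0.24, adjusted p 0.0125). Dbx1 stood at 1.75, 1.16 and 1.64 CPM, below every WT library (-0.69, SE 0.26, adjusted p 0.0279). Neither call held in every alternative: Dbx1 was at -0.51 (adjusted p 0.179) without NPC WT replicate 2 and at -0.53 (adjusted p 0.145) without NPC dCD replicate 2, and Irx5 was at 0.55 (adjusted p 0.0977) without NPC dCD replicate 2.

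The other 6 tested genes did not pass in dCD NPC. Nkx6-1 was at 0.552, 0.8 and 0.821 CPM, under every WT library (-0.63, SE 0.45, adjusted p 0.252; 95% interval -1.54 to 0.29). Irx3 was at 2.88, 2.79 and 1.96 CPM, also under every WT library (-0.43, SE 0.22, adjusted p 0.101), and passed in the fit of only the NPC groups compared (-0.42, adjusted p 0.0365). Olig1 was at 0.797, 0.331 and 0.645 CPM (0.85, SE 0.45, adjusted p 0.113) and passed without NPC dCD replicate 2 (1.14, adjusted p 0.044). Olig2 (-0.53, SE 0.51), Dbx2 (-0.37, SE 0.58) and Nkx6-2 (0.46, SE 0.52) overlapped WT. In dCD NPC the 8 neural progenitor markers summed to 403 to 440 CPM and the 8 neuron markers to 416 to 446 CPM, against 245 to 263 and 278 to 285 CPM in WT NPC. The neural crest markers summed to 136 to 142 CPM (68.4 to 74.3 CPM in WT) and the mesoderm and mesenchyme markers to 665 to 741 CPM (512 to 530 CPM in WT). Lower sums were those of the oligodendrocyte lineage, which expresses Olig1 and Olig2, at 393 to 402 CPM (1050 to 1080 CPM in WT), of surface ectoderm at 293 to 304 CPM (395 to 401 CPM in WT) and of endoderm at 177 to 184 CPM (205 to 213 CPM in WT). None of these markers was at 0 in either group. Called higher and lower were 5 and 0 neural progenitor, 5 and 1 neuron, 3 and 0 neural crest and 4 and 3 mesoderm and mesenchyme markers. In each of the 3 lists with a lower sum, 0 were called higher and 4 lower. Most of the oligodendrocyte sum was Myrf (308.8 ± 6.27 CPM against 946 ± 22.7 in WT). The part of such cells in these values was not tested.

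Set directly against each other, the edited NPC lines differed in 4 of the 8 genes, 2 higher and 2 lower in dCD, where 55.9% of all genes tested were called (24.3% higher and 31.6% lower). Nkx6-1 was higher in dCD than in MLL2dTAG by 1.80 on the log2 scale (SE 0.54, adjusted p 0.00491) and Olig1 by 2.28 (SE 0.52, adjusted p 0.000293). Nkx6-2 was lower in dCD (log2 fold change -2.26, SE 0.35, adjusted p 8.24e-07), and Irx3 was at -0.63 (SE 0.21, adjusted p 0.0128). None of these 4 overlapped between the lines, and the first 3 were called in all 13 alternative fits. Nkx6-1 passed the filter without any MLL2dTAG NPC library, so its difference was favoured by the filter and is a description. Irx3 was no longer called without NPC MLL2dTAG replicate 3 (-0.56, adjusted p 0.0528) or without NPC dCD replicate 3 (-0.47, adjusted p 0.101). Dbx1, lower than WT in both lines, differed by 0.17 between them (95% interval -0.39 to 0.73), Irx5 by -0.27 (95% interval -0.73 to 0.19), Olig2 by 0.63 (95% interval -0.50 to 1.75) and Dbx2 by 1.47 (95% interval 0.05 to 2.90, adjusted p 0.0742). Dbx2 was called higher in dCD with a replicate block (1.49, adjusted p 0.0467), without the filter on low counts (1.53, adjusted p 0.0344) and without NPC dCD replicate 3 (1.79, adjusted p 0.0426).

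**Figure D4:**
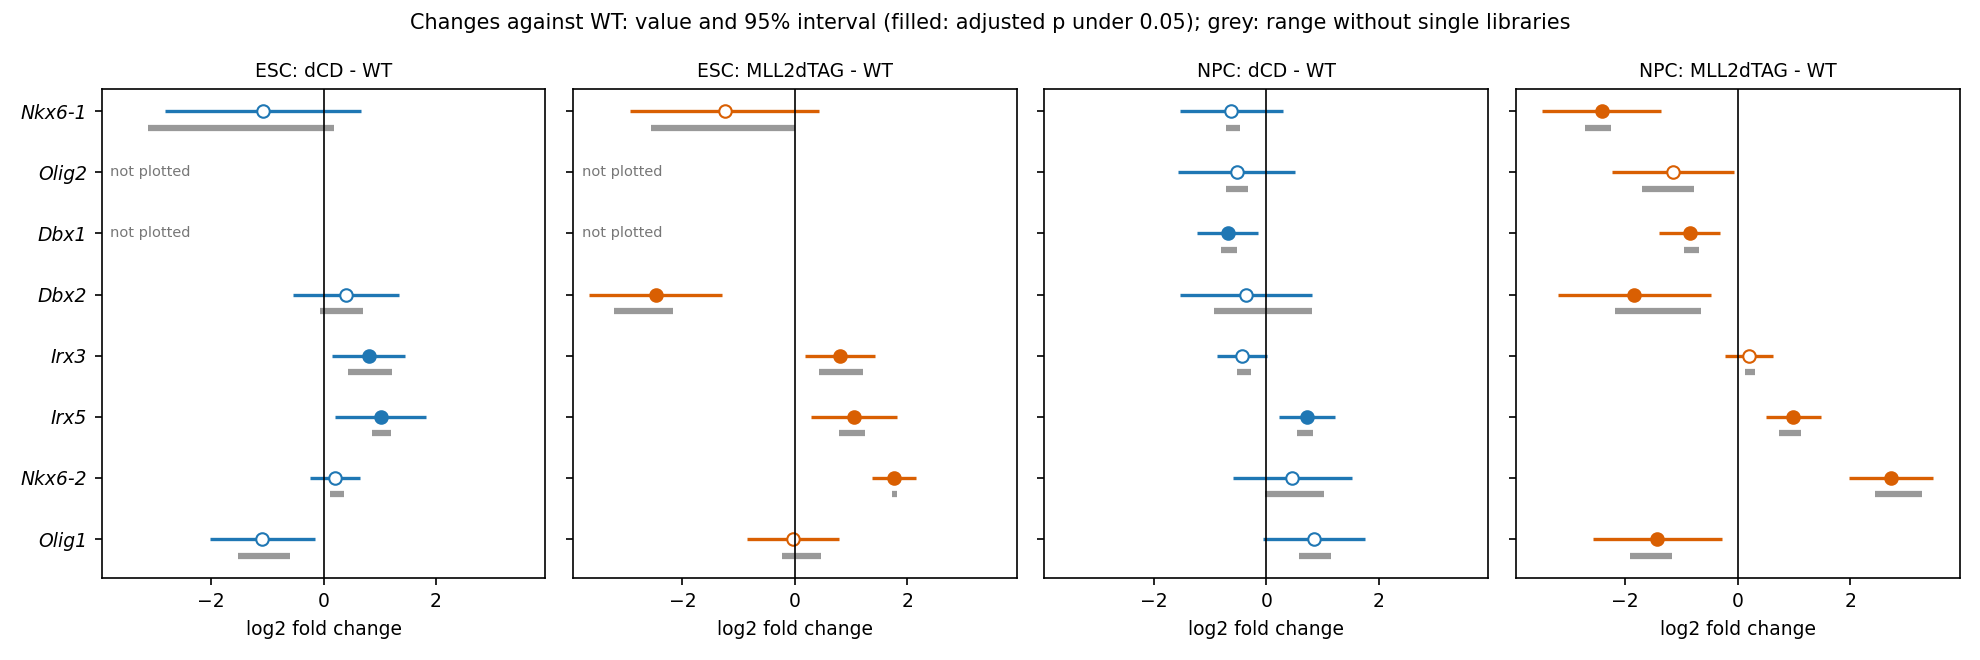
Log2 fold change against WT (horizontal axis) of the 8 tested genes in dCD and MLL2dTAG, as ESC and NPC, with its 95% interval, filled where the adjusted p is under 0.05, and in grey the range without single libraries. In MLL2dTAG NPC Nkx6-1 lies at -2.42 and Nkx6-2 at 2.72, and genes with too few counts in ESC are not plotted.

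Some of these differences were already present in ESC, before differentiation. In MLL2dTAG ESC 4 of the 8 genes were called, 3 higher and 1 lower, where 56.9% of all genes tested were called (28.7% higher and 28.2% lower). Nkx6-2 stood at 1.92, 2.09 and 2.21 CPM in WT ESC and at 7.54, 6.76 and 6.99 CPM in MLL2dTAG ESC, 3.40-fold higher with no overlap (log2 fold change 1.77, SE 0.19, adjusted p 6.17e-10). Dbx2 stood at 0.532, 1.09 and 1.19 CPM in WT and at 0.0732, 0.124 and 0.287 CPM in MLL2dTAG, 5.55-fold lower with no overlap (-2.47, SE 0.58, adjusted p 0.000437). Both calls held in all 13 alternative fits. Dbx2 passed the filter through WT and dCD ESC libraries, and every MLL2dTAG ESC library lay under its cut of 0.312 CPM. The lower Dbx2 value was thus favoured by the filter and is given as a description. With all genes kept in edgeR's fit it was at -2.42 (adjusted p 5.55e-06). Irx3 (0.80, SE 0.31, adjusted p 0.0251) and Irx5 (1.05, SE 0.38, adjusted p 0.0176) were higher, but the Irx3 call was lost without ESC WT replicate 2 (0.43) or ESC MLL2dTAG replicate 3 (0.71), and the Irx5 call without ESC WT replicate 1 (0.89) or ESC MLL2dTAG replicate 3 (0.78). Olig1 was at 0.731 to 0.879 CPM, within the WT range of 0.532 to 1.22 CPM. The 8 pluripotency markers summed to 2570 to 2660 CPM in MLL2dTAG ESC and to 1990 to 2180 CPM in WT ESC, with none at 0. The mesoderm and mesenchyme markers summed to 449 to 483 CPM against 250 to 319 CPM, with Tcf21 at 0 in both groups. The endoderm markers (27.8 to 30.1 CPM against 14.5 to 16.0 CPM) and the neural crest markers (37.5 to 39.0 CPM against 21.9 to 25.0 CPM) were higher as well. Surface ectoderm (14.7 to 16.4 CPM against 54.9 to 66.0 CPM) and neural progenitor markers (383 to 397 CPM against 430 to 452 CPM) were lower, with none at 0. Called higher and lower were 7 and 1 pluripotency, 5 and 2 mesoderm and mesenchyme and 3 and 1 endoderm markers. For neural crest these numbers were 3 and 2, for surface ectoderm 0 and 3 and for neural progenitors 2 and 4. The part of such cells in these values was not tested.

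In dCD ESC 3 of the 8 genes were called, Irx3, Irx5 and Dbx1, all higher, where 48.3% of all genes tested were called (25.7% higher and 22.6% lower). Irx5 was at 0.597, 0.662 and 0.745 CPM against 0.213, 0.398 and 0.34 CPM in WT, with no overlap (1.02, SE 0.40, adjusted p 0.0329). Irx3 was at 2.09, 1.7 and 0.782 CPM against 0.958, 0.431 and 1.22 CPM, with overlap (0.81, SE 0.32, adjusted p 0.0352). Dbx1 had 2, 0 and 4 counts against 0 in WT (adjusted p 0.0259). This was 2.11-fold higher against 3 counts over the group, which takes the 6 counts of dCD as exact and is not a lower bound. These counts were all even. Nkx6-2 was at 2.69, 1.82 and 2.68 CPM, overlapping WT (0.20, SE 0.21, adjusted p 0.463). Olig1 was at -1.09 (SE 0.46, adjusted p 0.0512) and was called lower with counts halved (-1.11, adjusted p 0.0336) and without ESC WT replicate 1 or 2 or ESC dCD replicate 2 (-1.26, -1.27 and -1.52, adjusted p 0.0237 to 0.0372). No call of this comparison held in all 13 alternative fits: in the fit of only the ESC groups compared, 0 of the members were called, with Irx3 at an adjusted p of 0.111 and Irx5 at 0.054, and Dbx1 not tested. With counts halved, Dbx1 (adjusted p 0.0774) and Irx5 (adjusted p 0.0747) were no longer called, nor was Irx5 without the filter on low counts (adjusted p 0.0513). Leaving out single libraries, the Irx3 call was lost without ESC WT replicate 2 (0.43) or ESC dCD replicate 1 or 2 (0.51 and 0.71), the Irx5 call without ESC WT replicate 1 or 3 or ESC dCD replicate 2 or 3 (0.86 to 1.04), and the Dbx1 call without ESC WT replicate 2 or 3 or ESC dCD replicate 3. In dCD ESC the mesoderm and mesenchyme markers summed to 414 to 471 CPM, with Mesp1 at 0, against 250 to 319 CPM in WT ESC, with Tcf21 at 0. The neural crest markers summed to 36.4 to 37.8 CPM against 21.9 to 25.0 CPM, the neural progenitor markers to 299 to 335 CPM against 430 to 452 CPM and the endoderm markers to 10.5 to 11.3 CPM against 14.5 to 16.0 CPM, with none at 0. Of the neural progenitor markers, however, 4 were called higher and 2 lower (median log2 fold change 0.61). Their lower sum followed Sox2 (200 ± 13.4 CPM against 311 ± 16.4) and Msi1 (32.6 ± 0.954 against 60.1 ± 3.62). Called higher and lower were 6 and 1 mesoderm and mesenchyme, 3 and 0 neural crest and 0 and 3 endoderm markers. The part of such cells in these values was not tested.

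Whether a line's difference from WT changed from ESC to NPC was tested as an interaction, the log2 change against WT in NPC minus that in ESC. In dCD it was called for 3 of the 8 genes, 1 upward and 2 downward, where 42.9% of all genes tested were called (20% upward and 22.9% downward). Olig1 was at -1.09 (SE 0.46) against WT in ESC and 0.85 (SE 0.45) in NPC, a difference of 1.93 (SE 0.64, adjusted p 0.0143). Irx3 was at 0.81 in ESC and -0.43 in NPC, a difference of -1.23 (SE 0.39, adjusted p 0.0092). Dbx1 passed the filter only through NPC, and its interaction (adjusted p 0.0118) rests in ESC on 2, 0 and 4 counts in dCD against 0, 0 and 0 in WT, so no size is given. The Olig1 call was lost without ESC WT replicate 3, ESC dCD replicate 1 or NPC dCD replicate 1 (1.44, 1.601 and 1.66), the Irx3 call without ESC WT replicate 2 or ESC dCD replicate 1 (-0.86 and -0.94), and the Dbx1 call without ESC dCD replicate 3.

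In MLL2dTAG the interaction was called for 0 of the 8 genes by edgeR's quasi-likelihood test, where 49% of all genes tested were called (26.4% upward and 22.6% downward). Of the 8, 1 had an unadjusted p under 0.05, and DESeq2 called 0. That gene was Nkx6-2, higher than WT by 1.77 in ESC and by 2.72 in NPC, a difference of 0.95 (SE 0.45, adjusted p 0.0752; 95% interval 0.05 to 1.86), and it passed without NPC WT replicate 2 (1.51, adjusted p 0.0258). Without ESC WT replicate 3, Olig1 (-1.89, adjusted p 0.0327) and Irx3 (-1.02, adjusted p 0.0451) passed. For Nkx6-1 the difference of -1.17 had a 95% interval of -3.33 to 0.99, so the change against WT was not shown to differ between the stages. In ESC it had 16 counts in WT and 8 in MLL2dTAG.

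Nkx2-2 and Gsx2 had too few counts for the filter and are given as counts. Nkx2-2, the factor of the most ventral interneuron progenitors, had 0, 0 and 0 counts in WT ESC and 7, 4 and 8 in dCD ESC, without overlap. This was 6.67-fold higher against 3 counts over the group, which takes the dCD counts as exact and is not a lower bound. It had 0, 0 and 2 counts in MLL2dTAG ESC. In NPC it had 1, 0 and 4 counts in WT, 6, 2 and 9 in dCD and 6, 12 and 4 in MLL2dTAG, and both lines overlapped WT. With all genes kept in edgeR's fit, the ESC difference of Nkx2-2 in dCD had an adjusted p of 0.000737, and those in NPC were at 0.195 in dCD and 0.137 in MLL2dTAG.

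Gsx2 had 0, 0 and 2 counts in WT NPC, 4, 6 and 16 in dCD NPC and 2, 8 and 8 in MLL2dTAG NPC. The ratio to WT was 13.3 in dCD (exact 95% counting interval 3.32 to 115) and 8.05 in MLL2dTAG (1.93 to 71.5). All these counts were even, and the intervals treat each count as independent. With each count halved, the intervals were 1.99 to 563 in dCD (13 against 1) and 1.12 to 353 in MLL2dTAG (9 against 1), an alternative chosen after seeing the data. Every library of both lines lay above WT in CPM, by a narrow margin in MLL2dTAG, where the lowest library had 2 counts, as many as the highest WT library. With all genes kept in edgeR's fit, the adjusted p was 0.00322 in dCD and 0.0369 in MLL2dTAG. In ESC Gsx2 had 8 to 10 counts a group. These fits share the WT NPC libraries, and the WT value rests on 2 counts in replicate 3.

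Other patterning genes were read from lists chosen with earlier results of these data known. A listed gene that reached the filter's cut in some groups only was tested through them. Its differences from the other groups were favoured by the filter, so the list counts and medians are a description. Their counts stand beside shares over all genes tested of 26.7% called higher and 26.8% lower in dCD NPC (53.5% in all), and of 33.3% higher and 28.4% lower in MLL2dTAG NPC (61.7% in all). Of 14 tested genes of the hedgehog pathway and floor plate, 7 were called higher and 3 lower in dCD NPC, and 5 higher and 5 lower in MLL2dTAG NPC, with median log2 fold changes of 0.12 and -0.07, against -0.02 and 0.03 over all genes tested. The ligand Shh was at 7.48 ± 0.986 CPM in WT NPC, 7.51 ± 0.262 in dCD and 9.59 ± 1.16 in MLL2dTAG, where it rose by 0.36 (SE 0.13). In dCD NPC the largest rises among genes at a mean of 1 CPM or more were those of Nkx2-9, a close relative of Nkx2-2 (2.48, SE 0.33), of the floor plate factor Foxa1 (1.55, SE 0.08) and of the hedgehog-binding protein Hhip (1.17, SE 0.06), and the falls were those of Gas1 (-0.56), Foxa2 (-0.32) and Smo (-0.24). In MLL2dTAG NPC Foxa1 (0.74), Foxa2 (0.66) and the co-receptor Boc (0.47) rose, and Hhip (-0.37) and the effector and target Gli1 (-0.31) fell, as did Smo (-0.16) and the receptor Ptch1 (-0.14), and Gli3 rose by 0.13.

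Among 20 tested dorsal and intermediate progenitor factors, 13 were called higher and 3 lower in dCD NPC, and 7 higher and 9 lower in MLL2dTAG NPC, with medians of 0.89 and -0.28. Pax7, a dorsal progenitor factor, fell in both lines, from 2.39 ± 0.516 CPM in WT to 0.896 ± 0.188 in dCD (log2 fold change -1.41, SE 0.28) and 0.168 ± 0.0589 in MLL2dTAG (-3.79, SE 0.36). The roof plate factor Lmx1a fell in both as well (-1.20, SE 0.16, and -2.90, SE 0.18), and Olig3, of the most dorsal progenitors, fell in MLL2dTAG (-2.28, SE 0.18). Ptf1a was the third gene lower in dCD (-2.91). At a mean of 1 CPM or more, rises in dCD were largest for Msx3 (2.32), Pax3 (1.71) and Zic1 (1.70), and in MLL2dTAG for Prdm12 (1.01), Msx2 (0.71) and Prdm13 (0.68). Gsx1, the close paralogue of Gsx2 and chosen here after its values were seen, had 0 counts in WT NPC, 20 in dCD NPC and 122 in MLL2dTAG NPC, and was called higher in both lines. Gsx1 passed the filter through its MLL2dTAG NPC libraries (0.883 to 1.2 CPM), while every dCD NPC library lay under the cut (at most 0.245 CPM). Its rise in MLL2dTAG was thus favoured by the filter, and both calls are a description.

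Of 26 tested markers of neuron classes that arise from these domains, 11 were called higher and 3 lower in dCD NPC, and 9 higher and 11 lower in MLL2dTAG NPC, with medians of 0.56 and -0.39. The 14 of 26 called in dCD are near the share of 53.5% over all genes. In MLL2dTAG NPC the motor neuron factor Mnx1 was at 0.842 ± 0.256 CPM against 2.19 ± 0.297 in WT (-1.38, SE 0.25). Gata2, which blood cells also use, fell in both lines (-1.43 in dCD and -1.77 in MLL2dTAG), as did Phox2a (-1.62 and -3.72) and the motor neuron factor Lhx3 (-1.43 and -1.34). At a mean of 1 CPM or more, rises were largest for En1 (2.29), Gata3 (1.41) and Isl1 (1.17) in dCD, and for Lhx2 (1.42), Isl1 (0.81) and Lbx1 (0.79) in MLL2dTAG. Isl1 is a motor neuron factor too, so these factors did not all move one way: Isl2 rose by 1.96 in dCD and 1.78 in MLL2dTAG, and Lhx4 by 2.60 and 1.89, from 34 and 11 counts over WT NPC. Lhx4 lay under the filter's cut in every WT NPC library (at most 0.1675 CPM), so its rises were favoured by the filter.

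Of 4 other tested genes of the Iroquois family and its relative Mkx, 3 were called higher and 1 lower in dCD NPC, and 2 higher and 0 lower in MLL2dTAG NPC. Irx2 rose in both lines (1.05, SE 0.10, and 1.11, SE 0.10), as Irx5 did, and Irx1 rose in dCD (1.73, SE 0.16). Mkx rose by 0.61 in dCD and 1.25 in MLL2dTAG, and Irx4 fell in dCD (-1.73, SE 0.57). The median of the 4 was 0.83 in dCD and 0.70 in MLL2dTAG. Of 11 tested telencephalic factors, set here because Gsx2 also acts there, 8 were called higher and 2 lower in dCD NPC and 7 higher and 2 lower in MLL2dTAG NPC, with medians of 2.11 and 2.55. Some of the 11, Dlx1 and Dlx5 among them, lay under the filter's cut in ESC and WT NPC (WT NPC at most 0.1265 and 0.2661 CPM). They were tested through the edited NPC lines, so their rises were favoured by the filter. These counts and medians are thus a description. Dlx2, of the ventral telencephalon where Gsx2 acts, rose in both lines (3.72, SE 0.25, and 2.69, SE 0.26). Emx2, of the dorsal telencephalon, fell in both (-2.41, SE 0.09, and -3.67, SE 0.10), as did Lhx6 in dCD (-0.58), and Dlx5 (4.17) and Dlx6 (3.35) rose in MLL2dTAG, where Six6 had 2 counts over the group and was called lower.

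Genes beside the 10 gave a local comparison. Fto, which lies beside Irx3, fell by 0.38 in dCD NPC and by 0.20 in MLL2dTAG NPC, while Irx3 itself was not called. The antisense gene Irx3os had 41, 25 and 39 counts over WT, dCD and MLL2dTAG NPC and was not called in either line, and Crnde, beside Irx5, was not called either (-0.26 and -0.09). Il10rb, on the chromosome of the Olig pair, rose in dCD NPC (0.75, SE 0.13), while Ifnar2, closer to Olig1, was not called in either line. Near Gsx2, Chic2 rose by 0.14 in dCD and 0.28 in MLL2dTAG, and Pdgfra rose by 1.35 in MLL2dTAG. Rpgrip1l fell by 0.30 in MLL2dTAG NPC, and Nkx2-4 and Nkx2-2os, near Nkx2-2, had 0 to 4 counts in each NPC group.

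Patterns over the 6 groups were compared by the root mean square difference of mean log2 CPM after centring (prior count 2), with smaller values for more alike genes, and are given as a description over 6 group means. Of the 28 pairs among the 8 tested members, Irx3 and Irx5 were closest (0.374) and Nkx6-1 and Olig2 came next (0.497), while the paralogues Dbx1 and Dbx2 (2.95) and Nkx6-1 and Nkx6-2 (3.08) were far apart. Among all 20511 genes tested, Irx3 was nearest to Kcnf1 (0.0782) and Gsn (0.0795), and Irx5 to E330011M16Rik (0.1) and Slc25a10 (0.105). Nkx6-1 was nearest to Scnn1g (0.187) and Sost (0.197), Nkx6-2 to Selp (0.175) and E330020D12Rik (0.211), and Olig2 to Has1 (0.127) and CT009754.4 (0.136). Dbx1 was nearest to Shank2 (0.224) and Rab36 (0.229), Dbx2 to Fam26f (0.178) and AA467197 (0.237), and Olig1 to Serinc2 (0.214) and Hcn3 (0.228). Selp shared the stage and line pattern of Nkx6-2, with 1.38 ± 0.348 CPM in WT ESC, 3.54 ± 0.468 in MLL2dTAG ESC, 0.0676 ± 0.0699 in WT NPC and 0.435 ± 0.0915 in MLL2dTAG NPC.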

How the data were processed

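Of 36 samples listed, the 18 libraries used here come from the second of 2 sets. Their values are whole-number counts of reads by gene symbol, as the authors deposited them, with HTSeq listed in the submitters' processing notes and TruSeq Stranded mRNA libraries per the labels' protocols. For this table, aligner, genome build and strand setting are not given in the sources used here. Its 6 further columns, whose names repeat, and the 12 columns of the other table, whose names match no label, were not used here.

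Tests used edgeR 4.0.16 with limma 3.58.1 in R 4.3.3, and DESeq2 1.42.0 as an alternative. filterByExpr by group kept 20511 genes, TMM factors ranged from 0.967 to 1.05, and edgeR's quasi-likelihood fit to all 18 libraries had a mean for each group and 12 residual degrees of freedom. Tests were two-sided, with Benjamini-Hochberg adjustment over all genes tested and calls at 0.05, for 10 comparisons. Standard errors come from the F statistic. The code was tested on simulated counts. CPM use TMM factors, and levels per kb use GENCODE M21 exons, which held 92.1% of the table's symbols. Replicate pairs differed by more than sampling noise (chi-square over degrees of freedom 2.19 to 10.5).

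The 10 genes and all lists were chosen with earlier results of these data known. Named from each list, in the NPC comparisons with WT, are at most the 3 largest called rises and falls among genes at a mean of 1 CPM or more; all neighbours and the 2 genes nearest in pattern to each tested member are also named, while Shh, Smo, Ptch1, Gli3, Ptf1a, Gsx1, Phox2a, Lhx3, Lhx4, Isl2, Irx4 and Six6 were named after their values were seen. Alternatives were other scaling factors, no filter on low counts, DESeq2, only the groups compared, a replicate block, halved counts and each library left out, and, chosen after seeing the data, counting intervals of Gsx2 with counts halved. Some genes that the naming rule selects are not reported here. A planned comparison of protein sequences was not run.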

Additional observations from a re-analysis of the deposited data

Results flagged for a closer look

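A change of the difference from WT between ESC and NPC was called in dCD for 3 of the 8 genes tested, by edgeR's quasi-likelihood test. Of all genes tested, 42.9% were called, so nothing is read from the count of 3. In all 19 alternative fits, 0 of the 3 calls held throughout. For Olig1 the change in NPC minus that in ESC was 1.93 on the log2 scale. For Irx3 it was -1.23. For Dbx1 the fitted value was -5.12, which depends on the prior count because WT ESC had 0, 0 and 0 counts and dCD ESC had 2, 0 and 4, so its size is not a bound. Dbx1 passed the filter on low counts only through NPC libraries. No group of 4 or more libraries was available for a check of single outlying values.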

How the results depend on the processing

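Each result was recomputed under 13 alternatives (19 for the interactions). Of 20 member values that changed sign, 0 were called in the reported fit. Without the filter on low counts Olig1 in MLL2dTAG ESC was at 0.0186. Without single libraries, sign changes lay in these ranges: in dCD ESC against WT, Nkx6-1 -3.12 to 0.19 and Dbx2 -0.0558 to 0.70; in MLL2dTAG ESC, Nkx6-1 -2.56 to 0.0069 and Olig1 -0.22 to 0.46; in dCD NPC, Nkx6-2 -0.0236 to 1.02 and Dbx2 -0.93 to 0.81; from ESC to NPC in MLL2dTAG, Dbx2 -1.02 to 0.0402. For the interactions the ranges were Nkx6-1 -0.815 to 2.49, Nkx6-2 -0.23 to 0.82 and Dbx2 -1.33 to 0.41 in dCD, and Nkx6-1 -2.43 to 0.14 and Irx5 -0.32 to 0.21 in MLL2dTAG. In the fit of only the groups compared, the members called in dCD ESC went from 3 to 0, with fewer libraries to estimate the spread. Without single libraries the members called ranged from 1 to 3 in dCD ESC, 2 to 5 in MLL2dTAG ESC, 1 to 2 in dCD NPC, 3 to 6 in MLL2dTAG NPC, 1 to 3 for the dCD interaction and 0 to 2 for the MLL2dTAG interaction. Otherwise the cause was not tested. Upper-quartile factors shifted the median log2 change of all genes from ESC to NPC in MLL2dTAG by -0.12, and the share of calls that were higher between the edited NPC lines from 43.5% to 54.8%. Replicate numbers did not pair libraries (correlations of deviations from -0.0278 to 0.0321), and a replicate block gave 3, 4, 2 and 6 members called in dCD ESC, MLL2dTAG ESC, dCD NPC and MLL2dTAG NPC, as without it, and 5 in place of 4 between the edited NPC lines, the further one being Dbx2. Low counts limit Olig1, Olig2, Dbx2, Nkx2-2 and Gsx2 most.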

Other observations

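Of the 8 genes tested, Nkx6-2 and, by its means, Dbx2 had a higher level in ESC than in NPC in every genotype. Dbx2 passed the filter only through ESC libraries, which favoured this order. In MLL2dTAG it had 17 counts in ESC and 12 in NPC, and its stages overlapped. The Nkx6-2 level in MLL2dTAG NPC (0.795 to 1.04 CPM) lay between WT NPC (0.0633 to 0.213 CPM) and WT ESC (1.92 to 2.21 CPM). Dbx2 and Olig1, the other genes that were lower in WT NPC than in WT ESC, did not share this order: in MLL2dTAG NPC they stood at 0.0522 to 0.132 CPM and 0.0593 to 0.177 CPM, below every WT library of both stages.

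Dbx1 was the sole member with 0 counts in all 3 libraries of both WT ESC and MLL2dTAG ESC, and every NPC library of every genotype had 42 or more counts of it.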
